A study of Mus musculus with 19 samples.

Results

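The genes described here are the receptors of the neuroactive ligand-receptor interaction pathway in P19CL6 cells, a mouse embryonal carcinoma line used as a model of heart muscle differentiation. Members were all genes whose pathway annotation names this pathway in at least 1 of the authors' 4 deposited tables, each of which sets a later day of differentiation against day 1. This gave 36 of the 4213 genes listed at any day, 1 entry per Entrez Gene identifier. Of these, 21 encode G protein-coupled receptors, 7 encode subunits of ligand-gated ion channels and 2 encode receptors of other kinds, the growth hormone receptor gene Ghr and the glucocorticoid receptor gene Nr3c1. The remaining 6, among them Fndc3a, Fndc3b, Nynrin, Pard3b and Pik3ip1, carry the pathway's name in the tables but are not known as receptors for neuroactive ligands, so that 30 of the 36 are receptor genes as the label says. The groups were differentiating cultures sampled at days 4, 7, 10 and 14, with 4 libraries for each day, and cultures sampled at day 1, with 3 libraries. All 19 libraries come from the same line, with no other treatment or genotype named in the labels, and beating was seen at day 14 according to the design text. RNA was measured by DGE tag profiling, a sequencing assay that counts short transcript tags assigned to each gene, without identifiers for single molecules.

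G protein-coupled receptors span the membrane and, when a ligand binds outside, switch on G proteins inside, which raise or lower cyclic AMP, release calcium or act on the cytoskeleton. Ligand-gated ion channels are assemblies of subunits that open when glutamate, acetylcholine, GABA or glycine binds. The pathway takes its name from nerve cells, but many of its receptors act in the embryo and in the heart and vessels, where apelin, endothelin, angiotensin, lysophospholipids and catecholamines are ligands.

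Each level is a mean that the authors took over all libraries sampled on that day, in TPM, the tag count scaled to a common library size. The files hold 0 columns for single libraries, so the spread between replicates is not known and no p-value is given. Every gene was called by the authors, who list it as higher or lower by at least 2-fold, and a gene that is not listed at a day has no value there and is not shown to be unchanged. Likewise, a gene searched and not listed at any day is not shown to be absent. As background for such searches, 4213 genes were listed at any day, beside 21896 protein-coding genes in the GRCm38.p6 annotation. Folds were computed from the summed tags of a day, and the ranges in brackets are exact 95% Clopper-Pearson intervals that cover counting error only. Later days had between 22900000 and 23800000 tags in total, and day 1 had 17400000, as estimated from counts and TPM. For genes with 0 tags at day 1, folds were taken against 3 tags over the 3 libraries, or 0.172 TPM, and are written as at least. These folds are not 95% limits, because they leave out counting error. The 4 comparisons share the same day 1 libraries. In such bulk cultures more cells of a type and more RNA per cell cannot be told apart.

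Rises outnumbered falls among the receptor pathway genes at every later day. In the authors' deposited table for day 4, 14 of 36 genes rose and 0 fell, or 38.9% and 0%, beside 21.3% and 20.9% of all 4213 genes. At day 7, 13 rose (36.1%) and 4 fell (11.1%) in the deposited table, beside 25.9% and 14.9% of all genes. At day 10 the deposited table held 21 rises (58.3%) and 4 falls (11.1%), beside 40.2% and 14.2%. At day 14 it held 24 rises (66.7%) and 3 falls (8.33%), beside 49.8% and 17.2%. Among the 30 receptor genes alone, 8 rose (26.7%) and 4 fell (13.3%) at day 7, which is close to the shares over all genes. At days 4, 10 and 14 the receptor genes alone had 10, 16 and 19 rises (33.3%, 53.3% and 63.3%) and 0, 4 and 3 falls (0%, 13.3% and 10%).

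**Figure D1:**
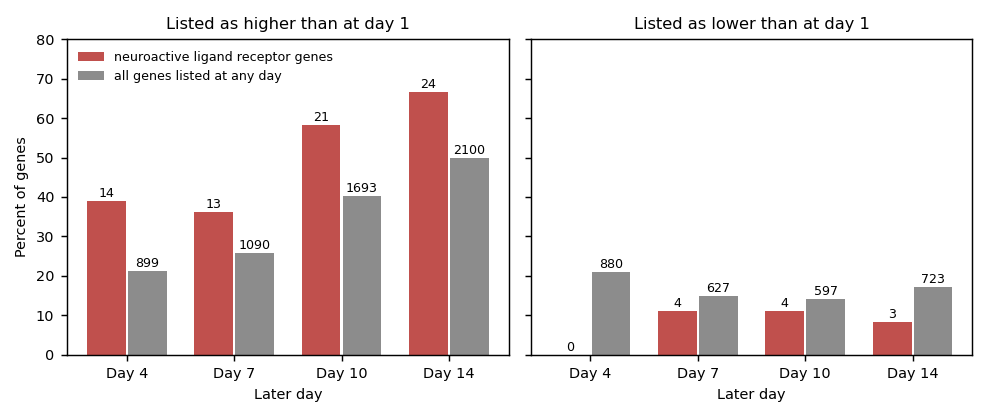
Share of genes, in percent, that the authors' deposited tables list as higher (left) or lower (right) than at day 1, for the 36 neuroactive ligand receptor genes (red) and all 4213 genes listed at any day (grey), with the number of genes above each bar. The red bar is taller than the grey one at each of the 4 later days on the left and shorter on the right. For the 30 receptor genes alone, which are not drawn, the shares at day 7 were 26.7% and 13.3%.

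Over all later days, 32 of the 36 rose at some day in the deposited tables (88.9%, beside 66.9% of all listed genes) and 5 fell at some day (13.9%, beside 34.4%). The sphingosine 1-phosphate receptor gene S1pr3 did both. There were 6 members that rose at all 4 later days (16.7%, beside 8.83%), namely Gabbr1, Lpar1, Pth1r, Ghr, Fndc3b and Pik3ip1, and 10 that were listed at a single day. At day 1, 9 members had 0 tags (25%, beside 7.83%), and these 9 could not be listed as fallen. The median log2 ratio over members listed at the day, with genes at 0 tags set to 3, was 2.26, 1.86, 2.56 and 3.03 for days 4, 7, 10 and 14. Over all genes listed at those days it was 1.02, 1.26, 1.49 and 1.59. Every listed gene has an absolute log2 ratio of at least 1, so these medians partly restate the shares that rose and fell. For members with at least 1 tag at both days the medians were 1.73, 1.86, 1.98 and 2.73. No such value over all genes is given here. Day 14 held the highest listed level of 17 members, day 10 that of 7, day 7 that of 1, day 4 that of 7 and day 1 that of 4.

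**Figure D2:**
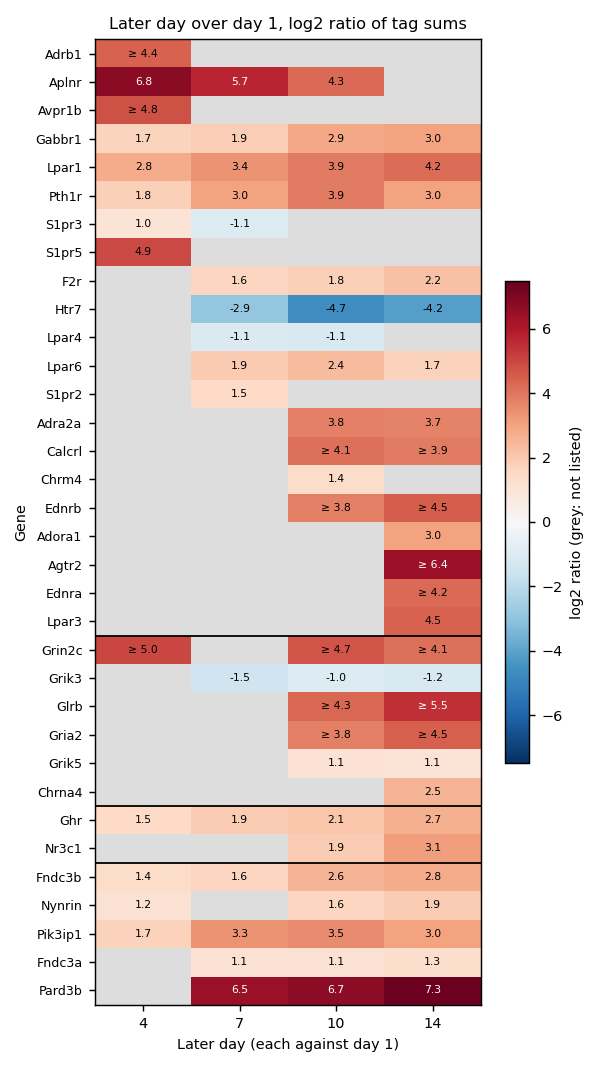
Log2 ratio of tag sums, later day over day 1 (columns), for the members shown (rows), with G protein-coupled receptors at the top, then ion channel subunits, other receptors and genes not known as receptors, divided by black lines. Red is higher and blue lower than at day 1, grey means not listed, and a value with ≥ is a lower bound for a gene with 0 tags at day 1. Blue cells are in the rows of S1pr3, Htr7, Lpar4 and Grik3.

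Among receptors for vasoactive peptides, the apelin receptor gene was high at day 4 and the receptor genes for angiotensin II, endothelin and calcitonin gene-related peptides were listed from day 10 or day 14. Of the 16 such receptors searched, 6 were listed at some day, and in the deposited tables all 6 rose and 0 fell, where 66.9% of all listed genes rose and 34.4% fell at some day. At day 1, 5 of the 6 had 0 tags and Aplnr had 8. All 6 thus lay below the smallest mean count of 12 seen on the higher day. None of the 6 could be listed as fallen, so the absence of falls carries no information. Aplnr (Entrez Gene 23796), whose product binds apelin and Elabela and is needed for early heart progenitors in zebrafish, stood at 0.46 TPM at day 1, 51.0 TPM at day 4, 24.6 TPM at day 7 and 8.78 TPM at day 10, and was not listed at day 14. It was thus 111-fold (56.2 to 258), 53.6-fold (27 to 125) and 19.1-fold (9.52 to 44.9) higher at days 4, 7 and 10 than at day 1, where 8 tags were counted. After day 4 each listed step was downward beyond counting error, 2.07-fold lower (1.87 to 2.29) at day 7 than at day 4 and 2.80-fold lower (2.38 to 3.31) at day 10 than at day 7. Avpr1b, a vasopressin receptor gene of pituitary cells, was listed at day 4 alone, at 4.78 TPM against 0 TPM at day 1, at least 27.7-fold higher.

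Agtr2, the gene for the angiotensin II type 2 receptor, which is abundant in fetal tissues, had 348 tags or 14.6 TPM at day 14 against 0 tags at day 1, at least 84.8-fold higher. Ednra, the endothelin receptor gene of smooth muscle and neural crest derivatives, stood at 3.27 TPM at day 14 against 0 TPM at day 1, at least 19-fold higher. Both were listed at day 14 only. Ednrb, the gene of the other endothelin receptor, stood at 2.40 TPM at day 10 and 3.99 TPM at day 14, each against 0 TPM at day 1, and was 1.66-fold higher (1.18 to 2.36) at day 14 than at day 10. Calcrl, which encodes the core of the receptors for adrenomedullin and calcitonin gene-related peptide, stood at 2.97 TPM at day 10 and 2.56 TPM at day 14, against 0 TPM at day 1. These later levels did not differ beyond counting error (0.861-fold, 0.600 to 1.24, at day 14 against day 10).

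The cultures held markers of several cell types at these days. Of 7 endothelial markers, 6 rose at day 10 and 5 at day 14, with summed levels of 71.9 and 36.1 TPM against 0.12 TPM at day 1 over the markers listed, and Cdh5, Pecam1, Tie1 and Emcn at 0 tags at day 1. Of 8 cardiac muscle markers, 5 rose at day 10 and 7 at day 14, with summed levels of 117 TPM and 556 TPM against 0 TPM and 1.49 TPM at day 1. Of 5 blood markers, 3 rose at day 10 and 2 at day 14, with summed levels of 129 and 29.5 TPM, against 0 TPM at day 1. Of all listed genes, 40.2% rose at day 10 and 49.8% at day 14. Those shares are over genes listed at some day. Of the markers, 6 of the 7 endothelial, 7 of the 8 cardiac muscle and 3 of the 5 blood genes were listed at some day. The pluripotency marker Pou5f1 fell to 144 TPM at day 14, against 1489 TPM at day 1. The part of these cell types in the receptor levels was not tested.

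The 250 bases before the annotated start of Agtr2 and Calcrl are shown because both genes had 0 tags at day 1 and their promoters hold few CpG dinucleotides, written in capitals. They are RefSeq sequences of build GRCm38.p6, which is not the mm9 build of the study, at chrX:21484374-21484623 (plus strand) and chr2:84425267-84425516 (minus strand).
Agtr2: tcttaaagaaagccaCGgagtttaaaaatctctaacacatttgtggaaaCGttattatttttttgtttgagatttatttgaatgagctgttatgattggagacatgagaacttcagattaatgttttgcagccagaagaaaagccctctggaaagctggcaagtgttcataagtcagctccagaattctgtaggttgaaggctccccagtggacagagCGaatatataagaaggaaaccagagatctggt
Calcrl: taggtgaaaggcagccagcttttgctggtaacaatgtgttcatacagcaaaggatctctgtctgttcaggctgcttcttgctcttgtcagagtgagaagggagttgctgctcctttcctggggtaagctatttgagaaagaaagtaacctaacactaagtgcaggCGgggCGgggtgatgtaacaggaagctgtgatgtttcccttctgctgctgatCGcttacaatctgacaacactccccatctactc
Each window holds 3 CpG dinucleotides, and 29% of the 32851 promoter windows in the reference table hold fewer. Promoter windows were found for 30 of the 36 genes, and 26 of these have a single window. Among those 26, the 8 genes with 0 tags at day 1 held 3 to 24 CpG dinucleotides with a median of 13, and the 18 with tags at day 1 held 1 to 42 with a median of 18, so the ranges overlap. The median over all windows was 6.

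Lysophospholipid receptors, which sense lysophosphatidic acid (Lpar genes) and sphingosine 1-phosphate (S1pr genes) and act on migration and on vessel growth, moved in different directions. Of the 25 lipid mediator receptors searched, 7 were listed at some day. Lpar1 (14745) climbed through the series, at 1.49, 10.3, 15.7, 22.6 and 27.1 TPM at days 1, 4, 7, 10 and 14. It was 18.2-fold higher (12.3 to 28) at day 14 than at day 1, and each step between neighbouring days exceeded counting error, the last being 1.20-fold (1.07 to 1.35) at day 14 over day 10. Lpar6, a receptor gene known for its part in hair growth, stood at 24.5 TPM at day 7, 33.0 TPM at day 10 and 21.0 TPM at day 14, against 6.37 TPM at day 1. Its level at day 14 was 1.57-fold lower (1.40 to 1.76) than at day 10.

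Lpar4, another receptor gene for lysophosphatidic acid, fell to 28.4 TPM at day 7 and 27.2 TPM at day 10, against 60.0 TPM at day 1, which is 2.11-fold (1.92 to 2.33) and 2.21-fold (2.00 to 2.44) lower. Days 10 and 7 did not differ beyond counting error (0.958-fold, 0.858 to 1.07). Lpar3 was listed at day 14 alone, at 60 tags or 2.52 TPM against 2 tags or 0.12 TPM at day 1, a ratio of 21.9 (5.81 to 185). Thus Lpar1, Lpar3 and Lpar6 were above day 1 at day 14, while Lpar4 was below it at the days it was listed.

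Sphingosine 1-phosphate receptor genes were listed at days 4 and 7 and at no later day. S1pr3 stood at 26.7 TPM at day 4 and 6.34 TPM at day 7, against 13.1 TPM at day 1, so it was 2.03-fold higher (1.74 to 2.37) at day 4 and 2.07-fold lower (1.68 to 2.57) at day 7. From day 4 to day 7 this is a 4.21-fold lower level (3.51 to 5.07). S1pr5 was listed at day 4 alone, at 3.50 TPM against 0.12 TPM at day 1, a ratio of 30.5 (8.17 to 256) over 2 tags at day 1. S1pr2 was listed at day 7 alone, at 9.08 TPM against 3.27 TPM at day 1, 2.78-fold higher (2.06 to 3.79).

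The parathyroid hormone receptor gene Pth1r (19228), whose product serves bone and cartilage and the early parietal endoderm of the mouse, was the single listed gene of 68 neuropeptide and hormone receptors searched. It stood at 5.05, 17.5, 40.3, 73.7 and 41.6 TPM at days 1, 4, 7, 10 and 14. The peak at day 10 was 14.6-fold (11.8 to 18.3) above day 1. At day 14 the level was 1.77-fold lower (1.64 to 1.92) than at day 10 and did not differ beyond counting error from day 7 (1.03-fold, 0.944 to 1.13). F2r (14062), the gene for the thrombin receptor PAR1, which acts on platelets, endothelium and smooth muscle, stood at 58.0 TPM at day 7, 65.5 TPM at day 10 and 85.8 TPM at day 14, against 18.7 TPM at day 1. It was 4.59-fold higher (4.08 to 5.17) at day 14 than at day 1, and each listed step between later days was upward beyond counting error.

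Gabbr1, the gene for the ligand-binding subunit of the GABA-B receptor, stood at 3.27, 10.4, 11.9, 24.2 and 26.4 TPM at days 1, 4, 7, 10 and 14, a rise of 8.08-fold (6.15 to 10.8) at day 14. Days 7 and 4 did not differ beyond counting error (1.14-fold, 0.960 to 1.36), nor did days 14 and 10 (1.09-fold, 0.971 to 1.22), and the step of 2.04-fold (1.76 to 2.36) lay between days 7 and 10. Gabbr2, whose product is the obligate partner of Gabbr1 at the cell surface, was searched and was not listed at any day. Adora1, the adenosine A1 receptor gene, which slows the heart beat in the adult, stood at 6.54 TPM at day 14 against 0.80 TPM at day 1, 8.14-fold higher (4.71 to 15.2), and was listed at that day alone.

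**Figure D3:**
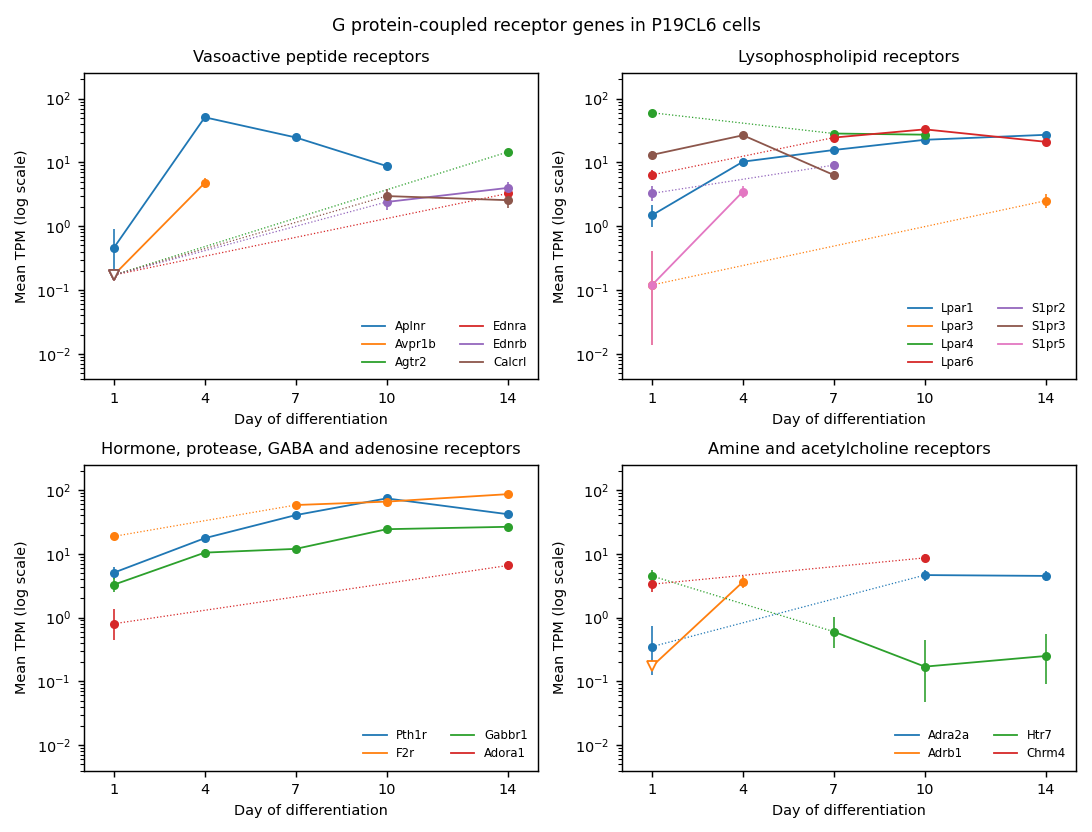
Mean TPM (log axis) by day of differentiation for the 21 G protein-coupled receptor genes, in 4 panels by ligand. Points are the authors' means with exact 95% Poisson intervals of the summed tags, open triangles mark 0 tags drawn at 0.172 TPM, and dotted lines span days at which the gene was not listed. Aplnr peaks at day 4, Pth1r at day 10 and Lpar1 climbs at each day, while Htr7 drops below 1 TPM.

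The listed receptor genes for amines and acetylcholine were at low levels. Of 14 adrenergic and dopamine receptors searched, 2 were listed. Adrb1 (11554), the gene for the main beta-adrenergic receptor of heart muscle, was listed at day 4, at 85 tags or 3.63 TPM against 0 tags at day 1, at least 21.1-fold higher, and was not listed at day 14, when the cultures beat. Adra2a, the gene for an inhibitory alpha2-adrenergic receptor, stood at 4.63 TPM at day 10 and 4.49 TPM at day 14, against 0.35 TPM at day 1, 13.4-fold (5.98 to 37.5) and 13-fold (5.80 to 36.3) higher. Of 21 serotonin, acetylcholine and histamine receptors searched, 2 were listed. Chrm4, the gene of an inhibitory muscarinic receptor, stood at 8.61 TPM at day 10 against 3.33 TPM at day 1, 2.58-fold higher (1.92 to 3.53).

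Htr7, the gene for a serotonin receptor that raises cyclic AMP, had the steepest fall among the 36 genes. It fell to 0.60 TPM at day 7, 0.17 TPM at day 10 and 0.25 TPM at day 14, against 4.48 TPM at day 1, on 14, 4 and 6 tags against 78. That is 7.47-fold (4.20 to 14.3), 25.6-fold (9.62 to 96.4) and 17.8-fold (7.81 to 49.9) lower, and days 14 and 10 did not differ beyond counting error (1.44-fold, 0.342 to 6.94). The 250 bases before its start lie at chr19:36057361-36057610 (minus strand, GRCm38.p6, RefSeq), and are shown as a CpG-rich contrast to Agtr2 and Calcrl, again with CpG in capitals.
Htr7: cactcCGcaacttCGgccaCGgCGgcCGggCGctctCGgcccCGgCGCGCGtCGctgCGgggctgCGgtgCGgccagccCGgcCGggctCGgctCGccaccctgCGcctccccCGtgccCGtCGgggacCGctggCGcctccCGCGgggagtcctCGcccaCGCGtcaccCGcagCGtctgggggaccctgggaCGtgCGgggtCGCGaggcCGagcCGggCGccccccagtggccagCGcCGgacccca
This window holds 41 CpG dinucleotides, and 98.9% of all windows hold fewer.

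More ion channel subunit genes were listed at days 10 and 14 than before, as was the case for all genes. In the deposited tables, 1 of the 7 rose and 0 fell at day 4, 0 rose and 1 fell at day 7, 4 rose and 2 fell at day 10, and 5 rose and 2 fell at day 14. Over all genes 21.3%, 25.9%, 40.2% and 49.8% rose and 20.9%, 14.9%, 14.2% and 17.2% fell at days 4, 7, 10 and 14. These 7 were among 66 subunits and channels searched, and 59 were not listed at any day. The AMPA receptor subunit gene Gria2 (14800), whose product sets the low calcium permeability of these glutamate channels, stood at 2.32 TPM at day 10 and 3.90 TPM at day 14, against 0 TPM at day 1, at least 13.4-fold and at least 22.7-fold higher. The glycine receptor beta subunit gene Glrb (14658), whose product anchors the receptor at synapses, stood at 3.41 TPM at day 10 and 7.76 TPM at day 14, against 0 TPM at day 1, at least 19.8-fold and at least 45.1-fold higher. Each was higher at day 14 than at day 10 beyond counting error, Gria2 by 1.69-fold (1.19 to 2.41) and Glrb by 2.28-fold (1.74 to 3.01).

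Gria2 and Glrb are neighbours in the GRCm38.p6 annotation, with 0 protein-coding genes between them, and they are the single adjacent pair among the 36. Both had 0 tags at day 1 and both were listed at days 10 and 14 and at no other day. Calcrl and Ednrb, which are not adjacent to another member, had the same pattern, so it is not particular to the adjacent pair. The upstream windows of Gria2 and Glrb are shown because the genes sit side by side. They lie on the minus strand at chr3:80802836-80803085 and chr3:80913661-80913910 (GRCm38.p6, RefSeq), with CpG in capitals.
Gria2: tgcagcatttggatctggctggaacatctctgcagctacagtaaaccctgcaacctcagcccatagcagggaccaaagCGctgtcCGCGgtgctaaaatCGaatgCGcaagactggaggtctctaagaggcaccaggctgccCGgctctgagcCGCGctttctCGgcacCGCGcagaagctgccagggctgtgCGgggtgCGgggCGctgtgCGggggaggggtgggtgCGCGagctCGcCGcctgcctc
Glrb: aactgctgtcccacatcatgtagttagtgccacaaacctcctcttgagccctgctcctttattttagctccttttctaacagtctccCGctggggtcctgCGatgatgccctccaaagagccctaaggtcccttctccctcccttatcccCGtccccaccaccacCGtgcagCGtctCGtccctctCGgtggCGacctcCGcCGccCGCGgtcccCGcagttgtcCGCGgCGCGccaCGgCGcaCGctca
The Gria2 window holds 19 CpG dinucleotides and the Glrb window 20, and 80.3% and 82.1% of all windows hold fewer. The GC box GGGCGG, on either strand, is in the Glrb and Calcrl windows and not in those of Gria2, Agtr2 and Htr7. It is in 4 of the 8 single windows of members with 0 tags at day 1, in 13 of the 18 of members with tags, and in 32.7% of all windows. The TATA box TATAAA is in 0 of those 8 windows, in 2 of the 18 and in 12.4% of all windows. The CCAAT box, CCAAT, is in 3 of the 8, in 2 of the 18 and in 33.8% of all. The GATA factor motif AGATAA is in 0 of the 26 single windows and in 9.99% of all. The T-box motif AGGTGT is likewise in 0 of the 26, and in 11.8% of all. The SMAD motif CAGAC is in 4 of the 8, in 6 of the 18 and in 42.2% of all. All motifs were searched on both strands. A match describes the letters only, and none of the 6 motifs contains another.

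The NMDA receptor subunit gene Grin2c, best known from the cerebellum, was listed earlier. It stood at 5.46 TPM at day 4, 4.46 TPM at day 10 and 2.98 TPM at day 14, against 0 TPM at day 1, and was not listed at day 7. Days 10 and 4 did not differ beyond counting error (0.816-fold, 0.623 to 1.07), and day 14 was 1.83-fold lower (1.36 to 2.49) than day 4. The kainate receptor genes moved apart. Grik5 stood at 47.7 TPM at day 10 and 47.1 TPM at day 14, against 22.8 TPM at day 1, 2.09-fold (1.86 to 2.35) and 2.07-fold (1.84 to 2.32) higher. Grik3 fell to 4.37 TPM at day 7, 6.07 TPM at day 10 and 5.54 TPM at day 14, against 12.4 TPM at day 1, which is 2.84-fold (2.23 to 3.63), 2.04-fold (1.64 to 2.55) and 2.24-fold (1.79 to 2.80) lower.

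The nicotinic subunit gene Chrna4 was listed at day 14 alone, at 4.99 TPM against 0.86 TPM at day 1, 5.80-fold higher (3.38 to 10.7). Neuronal markers also split at day 14. Of 12 such markers, 0 rose and 4 fell at day 7, 1 rose and 4 fell at day 10, and 3 rose and 2 fell at day 14. Of all listed genes, 25.9%, 40.2% and 49.8% rose at these days, and 14.9%, 14.2% and 17.2% fell. Those shares are over genes listed at some day, as were 7 of the 12 markers. Summed levels over the listed markers were 62.6 TPM at day 14 against 166 TPM at day 1. At day 14 the growth cone gene Gap43 stood at 14.3 TPM against 1.15 TPM at day 1 and Dcx, a marker of young neurons, at 2.98 TPM against 0 TPM, while Stmn2 fell to 32.1 TPM, against 149 TPM at day 1. Their part in the channel subunit levels was not tested.

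**Figure D4:**
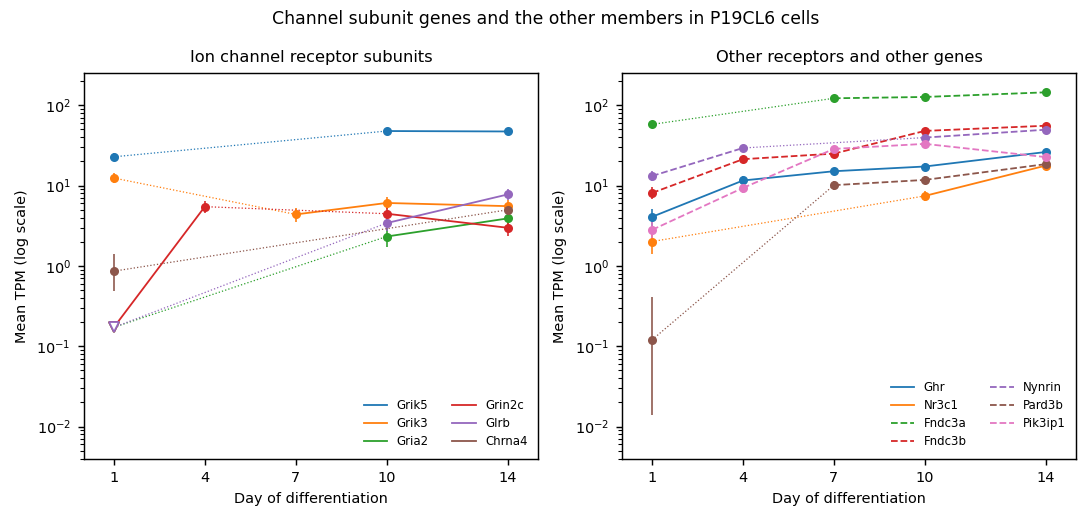
Mean TPM (log axis) by day for ion channel subunit genes (left) and for the 2 other receptor genes (solid) and genes not known as receptors (dashed) on the right. Points are the authors' means with exact 95% Poisson intervals, open triangles mark 0 tags drawn at 0.172 TPM, and dotted lines span days at which the gene was not listed. On the left Grik3 lies below its day 1 level at each listed day, and on the right each gene drawn lies above its own.

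Both receptors of other kinds rose. Ghr (14600), the gene for the growth hormone receptor, a cytokine receptor, stood at 4.08, 11.6, 15.1, 17.3 and 26.2 TPM at days 1, 4, 7, 10 and 14, and was 6.42-fold higher (5.02 to 8.33) at day 14 than at day 1. Its levels at days 10 and 7 did not differ beyond counting error (1.14-fold, 0.989 to 1.33). Nr3c1 (14815), the gene for the glucocorticoid receptor, a nuclear receptor that helps the fetal heart of mice to mature, stood at 7.43 TPM at day 10 and 17.8 TPM at day 14, against 2.01 TPM at day 1. This is 3.70-fold (2.56 to 5.48) and 8.83-fold (6.25 to 12.9) higher.

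The 6 genes that carry the pathway name without being known as receptors for such ligands all rose at some day, with 0 falls in the deposited tables, where 66.9% of all listed genes rose and 34.4% fell at some day. Pard3b, a cell polarity gene, stood at 18.5 TPM at day 14 against 0.12 TPM at day 1, a ratio of 161 (44.3 to 1335) over 2 tags at day 1. Pik3ip1, whose product inhibits phosphoinositide 3-kinase, peaked at 33.0 TPM at day 10 against 2.81 TPM at day 1, 11.7-fold higher (8.79 to 16). The fibronectin type III domain genes Fndc3b and Fndc3a stood at 55.5 and 145 TPM at day 14, against 8.09 and 57.7 TPM at day 1, 6.86-fold (5.77 to 8.22) and 2.51-fold (2.34 to 2.69) higher. Nynrin was 3.77-fold higher (3.27 to 4.37) at day 14 than at day 1. Counts over all 36 genes therefore include these 6.

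In the tables' annotation 9 of the 36 genes also belong to the calcium signalling pathway (Adrb1, Avpr1b, Ednra, Ednrb, F2r, Fndc3a, Fndc3b, Grin2c and Htr7). Of these, 4 rose and 0 fell at day 4 (44.4% and 0%, beside 21.3% and 20.9% of all genes). At day 7, 3 rose and 1 fell (33.3% and 11.1%, beside 25.9% and 14.9%). At day 10, 5 rose and 1 fell (55.6% and 11.1%, beside 40.2% and 14.2%). At day 14, 6 rose and 1 fell (66.7% and 11.1%, beside 49.8% and 17.2%). Adrb1, Avpr1b, Ednra, Ednrb and Grin2c had 0 tags at day 1 and could not be listed as fallen. The low shares of falls are thus partly fixed in advance. The vascular smooth muscle contraction pathway holds 3 (Avpr1b, Calcrl and Ednra).

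Genes that make or process the ligands were searched as a separate list of 41, of which 12 were listed at some day. Of these, 3 rose and 2 fell at day 4 in the deposited tables, and 5 rose and 3 fell at day 7. At day 10, 5 rose and 3 fell, and at day 14, 6 rose and 3 fell. Beside them, 21.3%, 25.9%, 40.2% and 49.8% of all 4213 listed genes rose at days 4, 7, 10 and 14. The shares that fell were 20.9%, 14.9%, 14.2% and 17.2%. Endothelin genes were listed before the receptor genes. Edn3 stood at 4.61 TPM at day 4 and 2.96 TPM at day 7, against 0 TPM at day 1, and Edn1 at 3.73 TPM at day 7 and 6.29 TPM at day 10, against 0 TPM at day 1. Ece1, the gene for the enzyme that cuts big endothelin to its active form, stood at 58.9 TPM at day 10 and 72.0 TPM at day 14, against 16.1 TPM at day 1, 4.48-fold higher (3.95 to 5.10) at day 14.

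Apln, the gene for the ligand apelin, was below its day 1 level at days 7 and 10, when Aplnr was above its own. Apln fell to 10.3 TPM at day 7, 7.86 TPM at day 10 and 9.23 TPM at day 14, against 26.1 TPM at day 1. It was 2.54-fold lower (2.16 to 2.98) at day 7 than at day 1 and was not listed at day 4. From day 7 to day 10 both genes went down beyond counting error, Apln by 1.31-fold (1.07 to 1.59). Enpp2, the gene for autotaxin, the enzyme that makes lysophosphatidic acid outside cells, fell to 3.50, 5.40, 2.88 and 5.66 TPM at days 4, 7, 10 and 14, against 19.7 TPM at day 1, while Lpar1 rose at the same days. Ramp2, whose product joins that of Calcrl to form an adrenomedullin receptor, stood at 3.85, 9.83 and 6.59 TPM at days 7, 10 and 14, against 0.12 TPM or 2 tags at day 1. Like Calcrl it was above day 1 at days 10 and 14. The neuropeptide Y gene Npy fell to 50.1, 33.1, 25.0 and 43.4 TPM at days 4, 7, 10 and 14, against 140 TPM at day 1, and none of the neuropeptide Y receptor genes searched was listed.

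**Figure D5:**
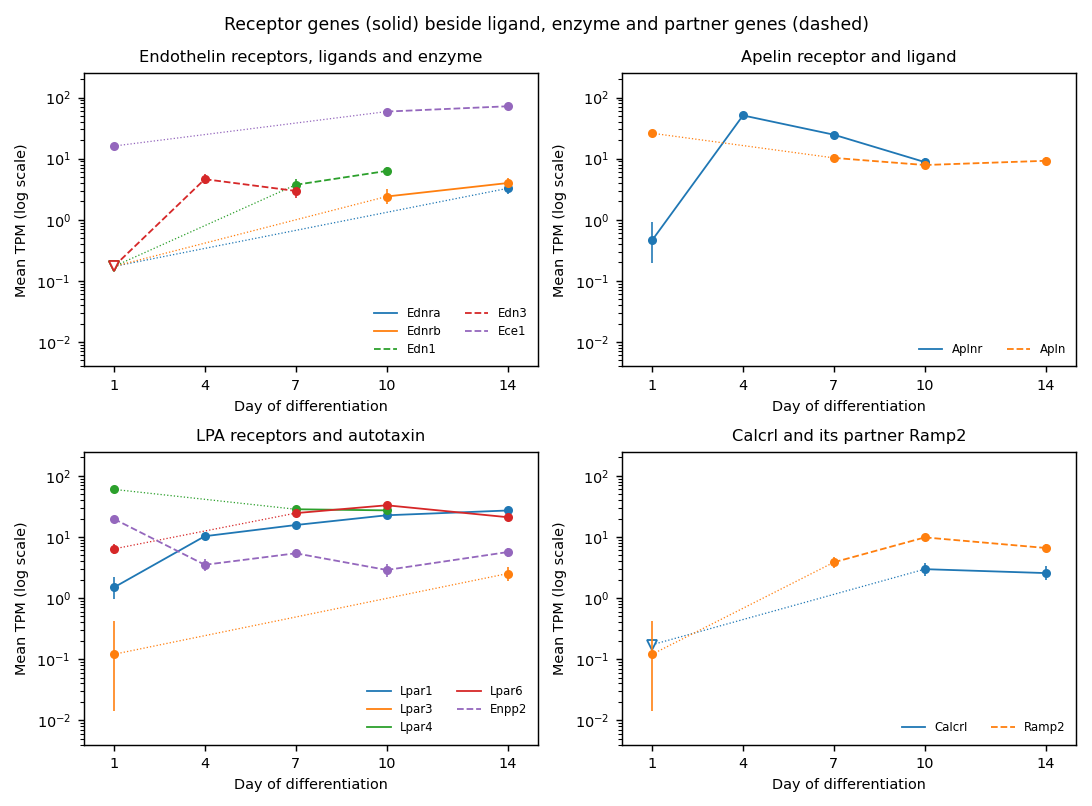
Mean TPM (log axis) by day for receptor genes (solid) beside genes for their ligands, enzymes or partners (dashed), in 4 panels. Points are the authors' means with exact 95% Poisson intervals, open triangles mark 0 tags drawn at 0.172 TPM, and dotted lines span days at which the gene was not listed. Edn3 and Edn1 were listed from days 4 and 7 and the endothelin receptor genes from days 10 and 14, and Apln and Enpp2 lie below their day 1 level at each listed day.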

How the data were processed

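Libraries followed Illumina's tag profiling kit, protocol 2.1B, per the labels' protocols, and refer to mm9 per the submitters' processing notes. Neither aligner nor test is named in the sources used here. The authors deposited 4 tables, filtered by FDR and incomplete per the design text, with the mean raw tag count of each day, TPM values and a log2 ratio of the later day over day 1. The deposited TPM of 0.01 stands for a mean count of 0 and was read as 0. Mean counts times the libraries of the day were whole numbers for 100% of genes (tolerance 0.01 per mean count), so tag sums were recovered. The deposited P-Value and FDR columns, treated as scores, were not used. On the higher of the days compared, the smallest mean count was 12, so a gene near 0 tags at day 1 could not be listed as fallen.

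Folds and intervals were computed with Python 3.11.15, numpy 2.4.6, scipy 1.17.1 and pandas 2.3.3, and figures with matplotlib 3.10.9. The interval code was tested on simulated data. Nothing in the labels says whether replicates were separate cultures. Members and lists were chosen with earlier results of these data known. Values are given for members with at least 10 TPM at any day or an absolute log2 ratio of at least 3, and for Aplnr, which 33 of 36 meet, and for Chrm4, Chrna4 and S1pr2. Values of some genes are not reported here, though counts include them. Genes resembling Aplnr over all days were not named, because Aplnr is not listed at day 14. Lists were matched by symbol, or by gene ID for Map2. The alternatives were an absolute log2 ratio of at least 2, the median TPM as a minimum, other row choices, log2(TPM + 1), genes with tags at both days, the deposited log2 ratio and, chosen after seeing the data, receptors only.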

Additional observations from a re-analysis of the deposited data

How the results depend on the processing

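No paired analysis was possible because the tables hold means per day, and for the same reason no library could be left out. With an absolute log2 ratio of at least 2, 7 members rose at day 4 (14 in the main count), 6 rose and 1 fell at day 7 (13 and 4), 1 fell at day 10 (4) and 1 fell at day 14 (3). Among genes at or above the median TPM of each table, 2 rose at day 4, 7 rose and 1 fell at day 7, 10 rose and 1 fell at day 10 (21 and 4), and 10 rose and 0 fell at day 14 (24 and 3). Both limits leave fewer genes to count. The shares of all genes under these limits are not given here. The counts therefore do not show whether the excess of rises over all genes holds under either limit. Among receptors only, 8 rose at day 7. Counting every table row, or the most abundant row of a gene, changed no count, since each gene has 1 row per table. The median log2 ratio at day 14 was 2.09 with log2(TPM + 1), against 3.03. The other alternative medians kept their sign and lay within the 95% order-statistic interval of the main median. Of 83 single ratios, 0 changed sign under TPM + 1, 35 left their counting interval and 48 stayed within it. Under the deposited log2 ratio the 68 ratios with tags at day 1 stayed within it. The 15 with 0 tags at day 1 have no upper counting limit. As deposited, these 15 were 4.10 to 4.11 higher than with 3 tags, because the authors set 0 to 0.01 TPM. Depth limits genes near 0 tags at day 1 most, such as Lpar3, S1pr5 and Pard3b with 2 tags, whose intervals span over 10-fold.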

Other observations

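Genes downstream of the receptors were listed in both directions. Of 30 G protein subunit genes searched, 8 were listed at some day. In the deposited tables there were 3 rises and 2 falls at day 4 and 6 rises and 1 fall at day 14. Of all 4213 listed genes, 21.3% rose and 20.9% fell at day 4, and 49.8% rose and 17.2% fell at day 14. Gng11, a gamma subunit gene, stood at 3.73, 7.78 and 7.59 TPM at days 7, 10 and 14, against 0.34 TPM at day 1, 22-fold higher (9.93 to 60.9) at day 14. The neuronal gamma subunit gene Gng3 was lower at all 4 later days, at 4.56, 3.00, 2.32 and 3.31 TPM at days 4, 7, 10 and 14 against 57.7 TPM at day 1. Gng10 changed direction, at 10.5 TPM at day 4, 67.8 TPM at day 10 and 60.0 TPM at day 14, against 24.3 TPM at day 1.

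Of 29 genes for RGS proteins, receptor kinases, arrestins and RAMP proteins, 9 were listed at some day. At day 4, 5 rose and 1 fell in the deposited table, where 21.3% of all listed genes rose and 20.9% fell. Rgs11, whose product speeds the switching off of G proteins, stood at 52.0 TPM at day 4 against 8.90 TPM at day 1, 5.85-fold higher (4.95 to 6.96), and was listed at that day alone. Rgs12 was higher at all 4 later days, with 41.6 TPM at day 4 and 22.8 TPM at day 14 against 9.64 TPM at day 1. Of 26 second messenger genes, 9 were listed at some day. At day 7, 1 rose and 2 fell, beside 25.9% and 14.9% of all listed genes. At day 14, 6 rose and 1 fell, beside 49.8% and 17.2%. Adcy6, the gene for an adenylyl cyclase of heart muscle, stood at 21.1, 24.5, 31.6 and 34.6 TPM at days 4, 7, 10 and 14 against 5.85 TPM at day 1. Prkcb, a protein kinase C gene, fell to 7.28, 4.59 and 7.51 TPM at days 7, 10 and 14, against 35.4 TPM at day 1.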
